A study of Homo sapiens with 12 samples.

Results

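Kinesins, the motor proteins that walk along microtubules, were followed in BON-1 cells grown alone or with fibroblasts. BON-1 is an established line from a human pancreatic neuroendocrine tumour. The family was taken as every gene of the deposited table whose symbol is KIF or KIFC followed by a member number, which gave 42 of 54261 genes. By their known roles 14 were mitotic, 9 were transport motors (the KIF1, KIF3 and KIF5 genes) and 19 were others. The study has 12 libraries of polyA RNA in 4 groups of 3: BON-1 alone, and BON-1 grown together with CAFs (cancer-associated fibroblasts, as the abbreviation is commonly read), mixed 10:2, 10:4 or 10:6 with BON-1 cells named first. Per the labels, BON-1 cells were recovered from the co-cultures by flow cytometry before RNA was extracted. They do not say whether BON-1 alone passed through the same sorter, how pure the sorted cells were, from whom the CAFs came, or whether the 3 libraries of a group came from separate cultures. The p-values therefore set differences against a spread between libraries that may be technical, and where sorting differed between the groups, its effect cannot be told apart from that of co-culture.

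A kinesin motor domain binds adenosine triphosphate in a short loop, the P-loop, and its hydrolysis drives the steps along the microtubule. Transport kinesins carry vesicles, organelles and ciliary cargo, mostly away from the cell centre. In neuroendocrine cells such cargo includes the dense-core granules that store hormones. Mitotic kinesins build the spindle, move chromosomes and split the daughter cells, and many of them are made mainly in the later part of the cell cycle. Microtubule-depolymerising members take subunits off microtubule ends in place of walking.

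Levels are FPKM, fragments scaled to gene length and to the reads of the library, so members can be set beside each other within limits. FPKM does not correct for base composition. Genes whose transcripts hold few G and C bases were on average lower in BON-1 alone than in co-culture, as given further on. The order of members depends on that and on the gene lengths used. In BON-1 alone the order was led by mitotic members. KIF22, a chromokinesin that pushes chromosome arms outward, averaged 93.9 ± 0.250 FPKM (SD, n = 3 here and below). KIF2C, the depolymerase also called MCAK, averaged 46.5 ± 0.309 FPKM. KIF20A, which brings Aurora B to the central spindle, averaged 40.8 ± 0.836 FPKM and KIF1A, the motor of neuronal and dense-core vesicles, averaged 40.6 ± 1.80 FPKM. KIF20A and KIF1A did not differ beyond their spread in BON-1 alone. KIF5B, the heavy chain of kinesin-1 found in most cell types, ranked 16 of 42 there with 6.63 ± 0.255 FPKM.

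**Figure D1:**
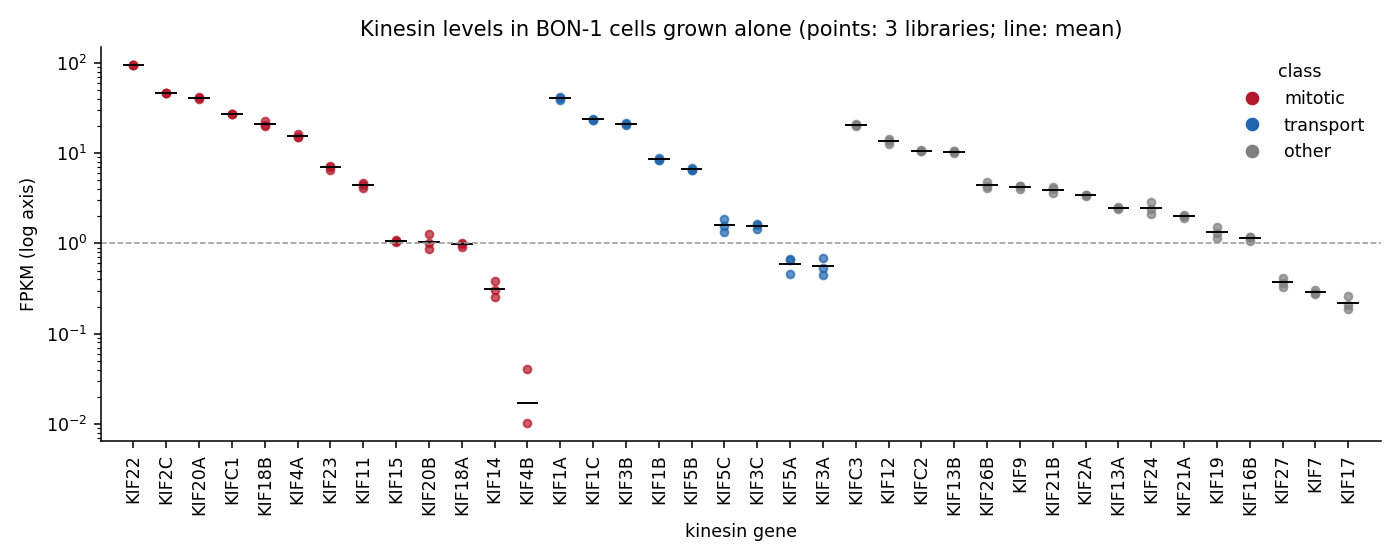
FPKM (log axis) of the kinesins with a mean above 0.01 FPKM in BON-1 alone, by class and in falling order within a class; points are the 3 libraries, short lines their mean, and the dashed line marks 1 FPKM. KIF22 leads with a mean of 93.9 FPKM, and the library of KIF4B listed at 0 cannot be drawn on a log axis.

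Of the 42 members, 32 reached 1 FPKM in at least 3 of the 12 libraries and were tested: 11 mitotic, 8 transport and 13 other. Left untested were KIF14, KIF2B and KIF4B among the mitotic motors, KIF5A among the transport motors, and KIF17, KIF25, KIF26A, KIF27, KIF6 and KIF7 among the others. KIF2B and KIF25 were listed at 0 in every library. Just outside the limit lay KIF14, a motor of cytokinesis whose highest library held 0.788 FPKM, and KIF5A, the neuronal kinesin-1 heavy chain, whose highest library held 0.778 FPKM. Just inside lay KIF3A, a subunit of the ciliary motor kinesin-2. KIF3A reached 1 FPKM in 5 libraries, all from co-culture, so the filter itself ensured that it was lower in BON-1 alone. KIF18A and KIF20B reached 1 FPKM in 10 libraries each, with 1 and 2 libraries of BON-1 alone among them.

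The coding bases around the P-loop show how much members with like proteins can differ in base composition, against which the fold changes are set further on. Each stretch has 60 bases, read 5′ to 3′ from the longest coding transcript in GENCODE 29, and the capitals mark the 24 bases of the P-loop. First come 4 genes that were higher in co-culture, then 3 that were lower.
KIF5B: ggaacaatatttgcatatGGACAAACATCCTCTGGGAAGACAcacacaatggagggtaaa
KIF11: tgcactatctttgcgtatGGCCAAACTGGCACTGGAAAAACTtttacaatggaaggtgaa
KIF21A: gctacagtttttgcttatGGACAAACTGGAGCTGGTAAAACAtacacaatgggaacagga
KIF18A: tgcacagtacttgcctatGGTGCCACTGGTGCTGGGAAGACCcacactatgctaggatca
KIF22: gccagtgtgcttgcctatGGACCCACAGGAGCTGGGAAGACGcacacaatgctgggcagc
KIF18B: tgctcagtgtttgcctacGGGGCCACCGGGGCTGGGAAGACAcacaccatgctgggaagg
KIFC1: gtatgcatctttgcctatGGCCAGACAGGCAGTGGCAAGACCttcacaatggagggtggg
Pairs of relatives were chosen after the values were seen. KIF18A and KIF18B, both of the kinesin-8 branch, differed at 13 of these 60 bases, and 17 of 20 codons gave the same residue. Of the 13, 8 were A or T in KIF18A and G or C in KIF18B, and 2 were the other way. KIF21A and KIF21B differed at 18 bases, 17 of which were A or T in KIF21A and G or C in KIF21B. This was the most uneven pair. KIF5B and KIF5C differed at 15 bases, 9 in that direction and 3 the other way. KIF2A and KIF2C differed at 11, with 3 and 1. KIF3B and KIF3C differed at 16, with 11 and 1, and KIF1B and KIF1A at 13, with 12 and 0. Over the whole coding sequence, G or C stood at 34.9% of last codon bases in KIF5B, 31.4% in KIF11, 36.5% in KIF21A and 30.7% in KIF18A. The share was 65.3% in KIF22, 74.3% in KIF18B and 61.8% in KIFC1. These genes do not show the full range. Among members with a value at 10:4, the 14 called higher had 28.6% to 61.5% (median 37.0%). The 5 called lower had 61.8% to 81.3% (median 70.2%), and the 10 not called had 49.9% to 82.1% (median 68.6%). KIF4A and KIF4B were identical over the 60 bases, and KIF4B is a near copy of KIF4A without introns, so reads of the pair can be split between them and the values of both are uncertain.

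The first question was whether kinesin levels differed between co-culture and BON-1 alone. Each gene was tested with limma on log2(FPKM + 1) in a fit of all 13312 tested genes, with Benjamini-Hochberg adjustment over those genes and a threshold of 0.05. A pseudocount of 1 understates the fold change of low genes. By the moderated F test over the 4 groups, 9 of 11 mitotic, 5 of 8 transport and 4 of 13 other kinesins differed, which is 18 of 32 or 56.2%, against 44.4% of all genes tested. KIF3A, which the filter itself set lower in BON-1 alone, is among the 5 transport kinesins and the 18, and is no support for a difference. At 10:4 and 10:6 both mitotic and transport kinesins had members called higher and a smaller number, all abundant, called lower. At 10:2 only mitotic kinesins held members called lower. The other kinesins held no member called lower. The difference between the classes was not tested.

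At 10:2, 27.4% of all tested genes were called, 19.9% as higher and 7.46% as lower. Among kinesins 13 of 32 were higher and 2 lower: 5 higher and 2 lower of 11 mitotic, 4 higher and 0 lower of 8 transport, and 4 higher and 0 lower of 13 other. At 10:4, 45.4% of all genes were called, 27.3% as higher and 18.1% as lower. There 14 kinesins were higher and 5 lower: 6 and 3 mitotic, 4 and 2 transport, 4 and 0 other. At 10:6, 48% of all genes were called, 29.7% as higher and 18.3% as lower, with 14 kinesins higher and 5 lower: 5 and 3 mitotic, 5 and 2 transport, 4 and 0 other. KIF3A, whose direction the filter fixed, is among the transport kinesins counted as higher. Without it 3 were higher and 0 lower of 7 at 10:2, 3 and 2 at 10:4, and 4 and 2 at 10:6. The median log2 difference of mitotic kinesins was 0.20 at 10:2, 0.21 at 10:4 and 0.21 at 10:6, and that of transport kinesins was 0.23, 0.21 and 0.31 at the same ratios. The transport medians include KIF3A. Over all tested genes it was 0.003, -0.01 and 0.02. The 3 comparisons share the libraries of BON-1 alone and are not independent. When each of the 6 libraries compared was left out in turn, all 6 fits kept 7 of the 15 calls at 10:2 (KIF11, KIF16B, KIF21A, KIF23, KIF2A, KIF3B and KIF5B), 17 of 19 at 10:4 (not KIF1C and KIF5C) and 15 of 19 at 10:6 (not KIF15, KIF1A, KIF1C and KIF5C). In bulk RNA, fewer cells of a type and less RNA per cell cannot be told apart.

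**Figure D2:**
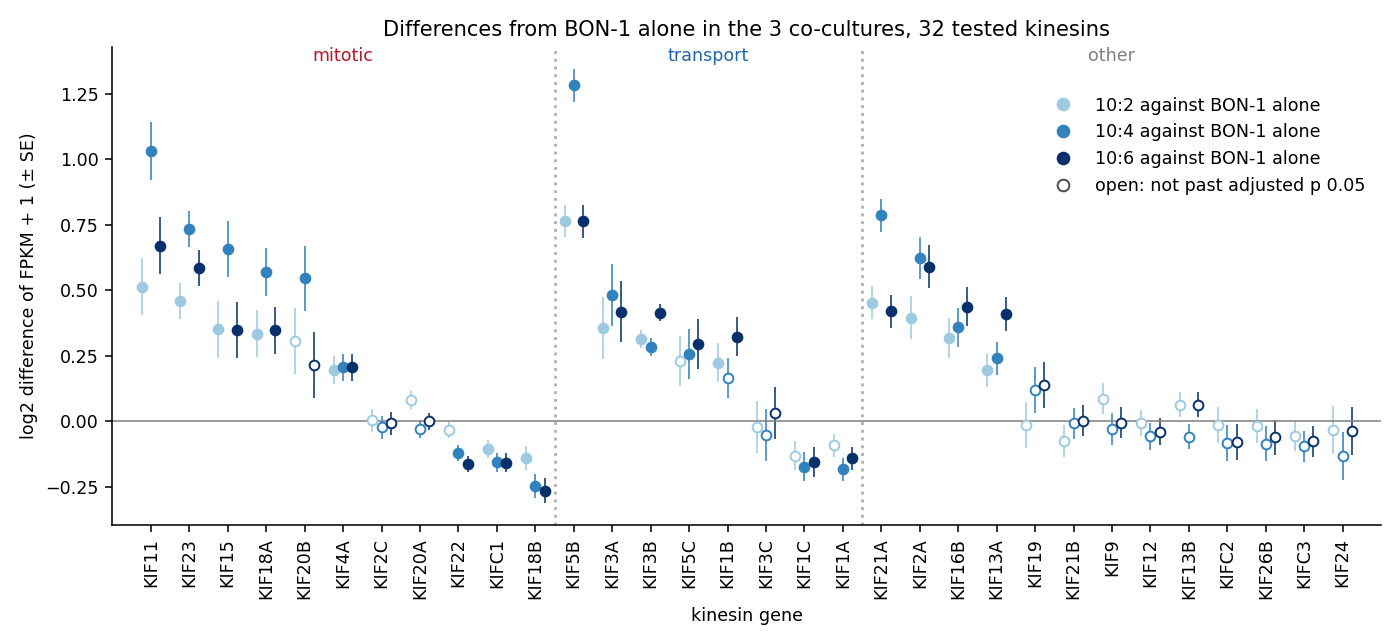
Log2 difference in FPKM + 1 from BON-1 alone (± SE) for the 32 tested kinesins, grouped by class and ordered by the value at 10:4; light to dark points are 10:2, 10:4 and 10:6, and open points did not pass the adjusted threshold of 0.05. KIF5B (1.28) and KIF11 (1.03) have the highest values at 10:4, and KIF18B, KIF1A, KIF1C, KIFC1 and KIF22 lie below 0.

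The split of calls over all genes depended on how libraries were scaled. With median-of-ratios scaling, 2469 genes were higher and 1819 lower at 10:2, 3406 and 3462 at 10:4, and 3543 and 3595 at 10:6. As deposited the counts were 2655 and 993 at 10:2, 3638 and 2408 at 10:4, and 3953 and 2441 at 10:6. With quantile normalization they were 1835 and 1130, 2817 and 3622, and 2915 and 3580 at the 3 ratios. Between 10:6 and 10:2 the counts were 423 and 562 with median-of-ratios scaling and 602 and 326 as deposited. The mitotic kinesins had 5 and 2, 6 and 3, and 5 and 3 with median-of-ratios scaling, and had 3 and 0, 6 and 3, and 3 and 3 with quantile normalization. Transport kinesins had 3 and 2, 3 and 2, and 5 and 2 with median-of-ratios scaling, and 2 and 0, 3 and 2, and 3 and 2 with quantile normalization.

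KIF11, the kinesin-5 that slides spindle microtubules apart, was higher at every ratio. The gene is on chromosome 10 from 92593130 to 92655395 (GRCh38.p14, here and below). It was at 4.16, 4.48 and 4.73 FPKM in BON-1 alone, 7.86, 5.86 and 6.76 at 10:2, 9.84, 10.6 and 10.1 at 10:4, and 6.25, 8.34 and 8.65 at 10:6. All 9 co-culture libraries lay above the 3 of BON-1 alone. Its log2 differences from BON-1 alone were 0.51 ± 0.11 at 10:2 (adjusted p = 0.00519), 1.03 ± 0.11 at 10:4 (adjusted p = 1.99e-05) and 0.67 ± 0.11 at 10:6 (adjusted p = 0.000433) in limma. KIF23, the motor of the centralspindlin complex that guides cytokinesis, was at 7.05, 7.28 and 6.47 FPKM in BON-1 alone, 9.59, 9.34 and 10.8 at 10:2, 12.9, 10.996 and 12.8 at 10:4, and 10.9, 10.6 and 11.2 at 10:6. The libraries of each co-culture again lay above BON-1 alone without overlap. For KIF23 the log2 differences from BON-1 alone were 0.46 ± 0.069 at 10:2 (adjusted p = 0.000555), 0.74 ± 0.069 at 10:4 (adjusted p = 7.51e-06) and 0.59 ± 0.069 at 10:6 (adjusted p = 4.00e-05) in limma.

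KIF15, a kinesin-12 that holds spindles open beside KIF11, was at 1.10, 1.04 and 1.07 FPKM in BON-1 alone, 1.87, 1.69 and 1.38 at 10:2, 1.87, 2.47 and 2.50 at 10:4, and 1.35, 1.73 and 1.85 at 10:6. The 10:4 libraries were highest on average, and replicate 1 of 10:4 equalled the highest 10:2 library to 3 digits. For KIF15 the log2 differences from BON-1 alone were 0.35 ± 0.11 at 10:2 (adjusted p = 0.0315), 0.66 ± 0.11 at 10:4 (adjusted p = 0.000460) and 0.35 ± 0.11 at 10:6 (adjusted p = 0.0190) in limma. KIF18A, which dampens chromosome movements at the plate, was at 1.01, 0.994 and 0.910 FPKM in BON-1 alone, 1.73, 1.22 and 1.53 at 10:2, 1.90, 2.04 and 1.84 at 10:4, and 1.59, 1.60 and 1.35 at 10:6. Its lowest co-culture library lay above the highest library of BON-1 alone, and its limma log2 differences from BON-1 alone were 0.33 ± 0.090 at 10:2 (adjusted p = 0.0176), 0.57 ± 0.090 at 10:4 (adjusted p = 0.000358) and 0.35 ± 0.090 at 10:6 (adjusted p = 0.00749).

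KIF18B, the kinesin-8 that trims astral microtubules, lay lower in co-culture. The gene is on chromosome 17 from 44924711 to 44947773. It was at 20.01, 20.2 and 22.5 FPKM in BON-1 alone, 19.4, 18.9 and 18.3 at 10:2, 17.2, 17.3 and 17.8 at 10:4, and 17.8, 16.7 and 17.1 at 10:6. Every co-culture library lay below every library of BON-1 alone. The limma log2 differences from BON-1 alone were -0.14 ± 0.047 at 10:2 (adjusted p = 0.0441), -0.25 ± 0.047 at 10:4 (adjusted p = 0.00125) and -0.26 ± 0.047 at 10:6 (adjusted p = 0.000735).

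Of the 6 remaining tested mitotic kinesins, KIF20B and KIF4A had higher means in co-culture. KIF20B, a motor of the late stages of division, averaged 1.05 ± 0.201 FPKM in BON-1 alone, 1.53 ± 0.140 at 10:2, 1.98 ± 0.236 at 10:4 and 1.39 ± 0.383 at 10:6, and was called only at 10:4 (0.55, limma adjusted p = 0.00405). KIF4A, the chromokinesin that limits microtubule length in the spindle midzone, averaged 15.5 ± 0.659 FPKM in BON-1 alone, 17.9 ± 1.44 at 10:2, 18.02 ± 0.355 at 10:4 and 18.02 ± 0.437 at 10:6 and was called at each ratio (0.20, 0.21 and 0.21; limma adjusted p = 0.0168, 0.00740 and 0.00681). At 10:4 both differences were smaller than that of KIF11.

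KIF22 and KIFC1 were lower. KIF22 averaged 93.9 ± 0.250 FPKM in BON-1 alone, 91.7 ± 0.655 at 10:2, 86.3 ± 1.38 at 10:4 and 83.9 ± 3.65 at 10:6, with log2 differences of -0.12 at 10:4 (limma adjusted p = 0.00802) and -0.16 at 10:6 (limma adjusted p = 0.00124). KIFC1, the minus-end motor that clusters spindle poles, averaged 27.3 ± 0.0774 FPKM in BON-1 alone, 25.3 ± 1.23 at 10:2, 24.4 ± 0.151 at 10:4 and 24.3 ± 0.188 at 10:6 and was called at each ratio (-0.11, -0.16 and -0.16; limma adjusted p = 0.0452, 0.00373 and 0.00326). The libraries of BON-1 alone varied less than these differences for both genes. In GENCODE 29, exons of an antisense gene cover 13.01% of the exon bases of KIF22 and exons of a pseudogene on the other strand cover 12.7% of those of KIFC1. Whether the counting used strand is not given in the sources used here.

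KIF20A and KIF2C passed the test at no ratio. KIF20A averaged 40.8 ± 0.836 FPKM in BON-1 alone, 43.1 ± 0.553 at 10:2, 39.9 ± 0.742 at 10:4 and 40.8 ± 1.51 at 10:6, and KIF2C averaged 46.5 ± 0.309 FPKM in BON-1 alone, 46.7 ± 1.84 at 10:2, 45.8 ± 1.57 at 10:4 and 46.3 ± 2.48 at 10:6. Summed over the 14 mitotic kinesins, the level was 260 ± 1.97 FPKM in BON-1 alone, 266 ± 0.475 at 10:2, 261 ± 2.53 at 10:4 and 254 ± 6.32 at 10:6. The sum was lowest at 10:6, where the 3 libraries also spread most. KIF22 made up 18.5% ± 0.417 of the summed family level at 10:6, against 21.1% ± 0.246 in BON-1 alone.

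KIF5B had the largest difference of all tested kinesins at each ratio on the scale of log2(FPKM + 1). The gene lies on chromosome 10 from 32009015 to 32056425, and 489 to 1398 reads per library stood behind its values. It was at 6.54, 6.91 and 6.43 FPKM in BON-1 alone, 11.9, 11.5 and 12.4 at 10:2, 16.7, 18.03 and 17.9 at 10:4, and 10.7, 12.8 and 12.4 at 10:6. All co-culture libraries lay above BON-1 alone, and the 3 libraries of 10:4 lay above all others. Its log2 differences from BON-1 alone were 0.76 ± 0.062 at 10:2 (adjusted p = 8.13e-06), 1.28 ± 0.062 at 10:4 (adjusted p = 9.00e-08) and 0.76 ± 0.062 at 10:6 (adjusted p = 2.94e-06) in limma, and the means were 1.80, 2.65 and 1.81 times that of BON-1 alone at 10:2, 10:4 and 10:6. By the ratio of means KIF3A was above KIF5B at 10:6, at 1.94 times.

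**Figure D3:**
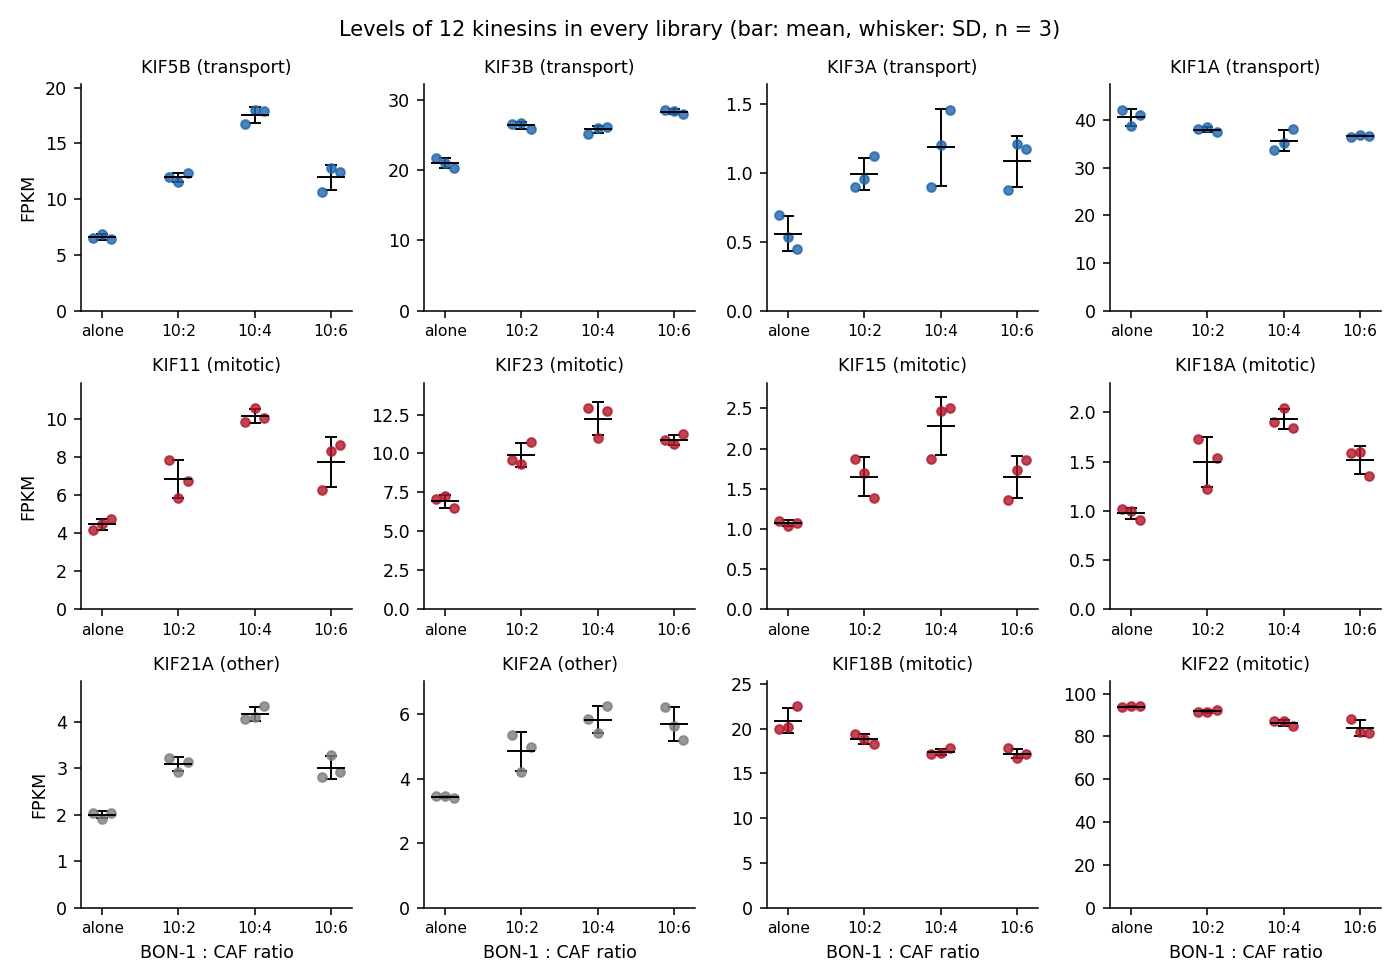
FPKM of 12 kinesins in each library, from BON-1 alone to the 10:6 co-culture; points are libraries, coloured by class, and bars and whiskers are the mean and SD of 3 libraries. KIF5B reaches 16.7 to 18.03 FPKM at 10:4 against 6.43 to 6.91 in BON-1 alone, whereas KIF18B and KIF22 lie lower in co-culture.

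KIF3B, the kinesin-2 subunit that pairs with KIF3A or KIF3C, was at 21.7, 20.99 and 20.4 FPKM in BON-1 alone, 26.6, 26.8 and 25.8 at 10:2, 25.2, 25.98 and 26.2 at 10:4, and 28.6, 28.4 and 28.05 at 10:6. The co-culture libraries did not overlap BON-1 alone. For KIF3B the log2 differences from BON-1 alone were 0.31 ± 0.033 at 10:2 (adjusted p = 5.29e-05), 0.28 ± 0.033 at 10:4 (adjusted p = 4.34e-05) and 0.41 ± 0.033 at 10:6 (adjusted p = 2.73e-06) in limma. KIF3A was at 0.696, 0.533 and 0.451 FPKM in BON-1 alone, 0.902, 0.956 and 1.12 at 10:2, 0.898, 1.20 and 1.46 at 10:4, and 0.874, 1.21 and 1.17 at 10:6, with 37 to 122 reads per library behind these values. It is the least abundant tested kinesin in BON-1 alone and, as said, could only pass the filter by being higher in co-culture. Its limma log2 differences from BON-1 alone were 0.35 ± 0.12 at 10:2 (adjusted p = 0.0442), 0.48 ± 0.12 at 10:4 (adjusted p = 0.00611) and 0.42 ± 0.12 at 10:6 (adjusted p = 0.0120).

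KIF1B, a carrier of mitochondria and synaptic vesicle precursors, was at 8.82, 8.31 and 8.39 FPKM in BON-1 alone, 11.2, 9.29 and 9.92 at 10:2, 8.48, 10.1 and 10.5 at 10:4, and 11.04, 10.9 and 10.8 at 10:6. Replicate 1 of 10:4 lay among the libraries of BON-1 alone. The limma log2 differences from BON-1 alone were 0.22 ± 0.075 at 10:2 (adjusted p = 0.0453), 0.16 ± 0.075 at 10:4 (adjusted p = 0.0928) and 0.32 ± 0.075 at 10:6 (adjusted p = 0.00406), so it was called at 10:2 and 10:6. KIF1A was at 42.2, 38.6 and 40.9 FPKM in BON-1 alone, 38.03, 38.5 and 37.4 at 10:2, 33.6, 35.2 and 38.02 at 10:4, and 36.5, 36.8 and 36.7 at 10:6. All libraries from co-culture lay below the lowest of BON-1 alone. For KIF1A the log2 differences from BON-1 alone were -0.09 ± 0.044 at 10:2 (adjusted p = 0.146), -0.18 ± 0.044 at 10:4 (adjusted p = 0.00572) and -0.14 ± 0.044 at 10:6 (adjusted p = 0.0207) in limma, and it was called lower at 10:4 and 10:6.

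The other tested transport kinesins were KIF5C, KIF1C and KIF3C. KIF5C, a kinesin-1 heavy chain enriched in neurons, averaged 1.59 ± 0.276 FPKM in BON-1 alone, 2.03 ± 0.275 at 10:2, 2.08 ± 0.191 at 10:4 and 2.16 ± 0.133 at 10:6 and was called higher at 10:4 (0.26, limma adjusted p = 0.0473) and 10:6 (0.29, limma adjusted p = 0.0249). KIF1C, a fast carrier of dense-core vesicles, averaged 23.6 ± 0.278 FPKM in BON-1 alone, 21.5 ± 1.43 at 10:2, 20.9 ± 1.25 at 10:4 and 21.1 ± 1.13 at 10:6 and was called lower at 10:4 (-0.17, limma adjusted p = 0.0256) and 10:6 (-0.15, limma adjusted p = 0.0398). KIF3C, the alternative partner of KIF3B, averaged 1.57 ± 0.112 FPKM in BON-1 alone, 1.54 ± 0.278 at 10:2, 1.48 ± 0.174 at 10:4 and 1.62 ± 0.202 at 10:6 and was not called. The summed level of the 9 transport kinesins was 105 ± 2.37 FPKM in BON-1 alone, 113 ± 2.63 at 10:2, 115 ± 5.90 at 10:4 and 115 ± 0.941 at 10:6.

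Among the other kinesins, KIF21A, KIF2A, KIF16B and KIF13A were called higher at each ratio. Counted as mitotic, KIF2A would add to the mitotic and take from the other members called higher at each ratio. KIF21A, a kinesin-4 that restrains microtubule growth at the cell cortex, was at 2.03, 1.91 and 2.04 FPKM in BON-1 alone, 3.23, 2.93 and 3.13 at 10:2, 4.06, 4.10 and 4.33 at 10:4, and 2.82, 3.29 and 2.93 at 10:6. The 10:4 libraries lay above all others and BON-1 alone below all others. Its limma log2 differences from BON-1 alone were 0.45 ± 0.063 at 10:2 (adjusted p = 0.000338), 0.79 ± 0.063 at 10:4 (adjusted p = 2.30e-06) and 0.42 ± 0.063 at 10:6 (adjusted p = 0.000223). KIF2A, a depolymerase of spindle poles and neurites, was at 3.45, 3.45 and 3.39 FPKM in BON-1 alone, 5.37, 4.19 and 4.98 at 10:2, 5.84, 5.41 and 6.24 at 10:4, and 6.23, 5.63 and 5.19 at 10:6. Its co-culture libraries all exceeded BON-1 alone, and the limma log2 differences from BON-1 alone were 0.40 ± 0.081 at 10:2 (adjusted p = 0.00418), 0.62 ± 0.081 at 10:4 (adjusted p = 9.26e-05) and 0.59 ± 0.081 at 10:6 (adjusted p = 0.000128). Exons of IPO11 on the same strand share 8.97% of the exon bases of KIF2A, so reads there could belong to either gene.

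KIF13A, which moves recycling endosomes, was at 2.52, 2.38 and 2.47 FPKM in BON-1 alone, 2.79, 3.20 and 2.90 at 10:2, 3.10, 3.30 and 2.87 at 10:4, and 3.64, 3.42 and 3.73 at 10:6. KIF16B, a motor of early endosomes, was at 1.18, 1.18 and 1.05 FPKM in BON-1 alone, 1.68, 1.63 and 1.69 at 10:2, 1.74, 1.78 and 1.70 at 10:4, and 1.95, 2.08 and 1.66 at 10:6. Both had their highest group mean at 10:6. For KIF13A the log2 differences from BON-1 alone were 0.19 ± 0.064 at 10:2 (adjusted p = 0.0413), 0.24 ± 0.064 at 10:4 (adjusted p = 0.00932) and 0.41 ± 0.064 at 10:6 (adjusted p = 0.000301) in limma, and for KIF16B the log2 differences from BON-1 alone were 0.32 ± 0.075 at 10:2 (adjusted p = 0.00875), 0.36 ± 0.075 at 10:4 (adjusted p = 0.00232) and 0.44 ± 0.075 at 10:6 (adjusted p = 0.000583) in limma. KIF13B, the relative of KIF13A that carries phosphoinositide vesicles, was at 10.6, 9.92 and 10.5 FPKM in BON-1 alone, 11.5, 10.4 and 10.7 at 10:2, 9.45, 10.1 and 10.1 at 10:4, and 10.9, 10.7 and 10.96 at 10:6. The groups of KIF13B overlapped at 10:2 and 10:4, and it was called at no ratio (log2 differences 0.06, -0.06 and 0.06).

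None of the 8 other members in this class passed the test against BON-1 alone. KIFC3, a minus-end motor at cell junctions, averaged 20.6 ± 0.441 FPKM in BON-1 alone, 19.8 ± 0.399 at 10:2, 19.2 ± 0.573 at 10:4 and 19.5 ± 2.05 at 10:6. KIF12 averaged 13.5 ± 0.736 FPKM in BON-1 alone, 13.4 ± 0.817 at 10:2, 12.9 ± 0.353 at 10:4 and 13.1 ± 0.356 at 10:6, and KIFC2, a minus-end motor described in mouse neurons, averaged 10.6 ± 0.103 FPKM in BON-1 alone, 10.5 ± 1.05 at 10:2, 9.96 ± 0.564 at 10:4 and 9.99 ± 0.707 at 10:6. These abundant members differed from BON-1 alone by less than 0.1 on the log2 scale. Exons of FOXH1 on the other strand cover 17.8% of the exon bases of KIFC2. KIF26B, which lacks motor activity, averaged 4.39 ± 0.305 FPKM in BON-1 alone, 4.32 ± 0.122 at 10:2, 4.09 ± 0.393 at 10:4 and 4.17 ± 0.153 at 10:6. KIF9, a motor of motile cilia, averaged 4.22 ± 0.157 FPKM in BON-1 alone, 4.55 ± 0.323 at 10:2, 4.11 ± 0.246 at 10:4 and 4.20 ± 0.160 at 10:6, and exons of an antisense gene cover 14.9% of its exon bases. KIF21B, the neuronal relative of KIF21A, averaged 3.94 ± 0.274 FPKM in BON-1 alone, 3.69 ± 0.136 at 10:2, 3.91 ± 0.118 at 10:4 and 3.95 ± 0.233 at 10:6. KIF24, at the centriole, and KIF19, in motile cilia of the mouse, are known to shorten microtubules. KIF24 averaged 2.45 ± 0.391 FPKM in BON-1 alone, 2.36 ± 0.139 at 10:2, 2.13 ± 0.240 at 10:4 and 2.35 ± 0.164 at 10:6, and KIF19 averaged 1.32 ± 0.182 FPKM in BON-1 alone, 1.29 ± 0.114 at 10:2, 1.52 ± 0.159 at 10:4 and 1.55 ± 0.105 at 10:6.

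The next question was whether kinesins differed between the co-culture ratios. Few genes did: 2.88% of all tested genes were called between 10:4 and 10:2, 6.97% between 10:6 and 10:2, and 0.331% between 10:6 and 10:4. At 10:4 against 10:2, KIF5B (0.52, limma adjusted p = 0.00216), KIF21A (0.33, limma adjusted p = 0.0212) and KIF11 (0.52, limma adjusted p = 0.0327) were higher. At 10:6 against 10:4, KIF5B (-0.52, limma adjusted p = 0.00405) and KIF21A (-0.37, limma adjusted p = 0.0361) were lower. At 10:6 against 10:2, only KIF22 was called (-0.13, limma adjusted p = 0.0332). KIF5B differed by -0.0008 ± 0.062 on the log2 scale between 10:6 and 10:2, with a mean of 11.97 ± 1.13 FPKM at 10:6 and 11.9 ± 0.420 at 10:2. The comparisons between ratios share the 10:4 or 10:2 libraries. Only the KIF5B calls were kept in every fit that left out 1 library. KIF11 lost its call at 10:4 against 10:2 without any single library of 10:4 or without replicate 2 or 3 of 10:2 (limma adjusted p up to 0.126). KIF21A lost it there without replicate 2 or 3 of 10:4 or replicate 2 of 10:2 (up to 0.102), and at 10:6 against 10:4 without any single library of 10:4 or replicate 1 or 3 of 10:6 (up to 0.145). KIF22 lost its call without any single library of 10:2 or replicate 2 or 3 of 10:6 (limma adjusted p up to 0.123). When only the groups compared were fitted, no kinesin was called at 10:6 against 10:4 or at 10:6 against 10:2.

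Fold changes of kinesins against BON-1 alone ran with the base composition of their transcripts. At 10:4 and 10:6, each of the 14 members called higher had a GC content of 47.6% or less in its longest transcript, and each of the 5 called lower had 54.9% or more. Over the 32 tested kinesins the Spearman correlation between GC content and log2 difference was -0.852 at 10:2, -0.827 at 10:4 and -0.801 at 10:6. These are correlations across genes that share the same libraries, and they are given as a description. Over 12409 genes with a value the same correlation was -0.676, -0.715 and -0.719. The relation was thus seen over all genes as well as over kinesins. At 10:6 against 10:4 it had the opposite sign in kinesins, at 0.411, and was 0.007 over all genes. After removal of length and GC trends, described next, the kinesin values were -0.419, -0.516 and -0.105 against BON-1 alone. Genes of low GC content, those in the lowest quintile, deviated from its mean over the 12 libraries by -0.284 to -0.275 log2 in BON-1 alone, by -0.041 to 0.034 at 10:2, by 0.12 to 0.20 at 10:4 and by 0.050 to 0.15 at 10:6. Median GC content was 46.4% in tested mitotic kinesins, 47.4% in tested transport kinesins, 52.6% in other tested kinesins and 49.8% in all tested genes with a value.

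Trends on GC content and gene length were then removed from each library, and the same fit was run on 12409 genes. At 10:2, 11.7% of those genes were called, 6.06% as higher and 5.61% as lower, and the kinesins called were KIF5B (0.44, limma adjusted p = 0.000107) and KIF3B (0.22, limma adjusted p = 0.000765), both higher. At 10:4, 23.2% of genes were called, 10.7% as higher and 12.5% as lower. KIF5B (0.81, limma adjusted p = 4.07e-07), KIF11 (0.56, 0.000825), KIF21A (0.41, 0.000268), KIF23 (0.40, 0.00211) and KIF3B (0.20, 0.000642) were higher. KIF18B (-0.15, limma adjusted p = 0.0214) and KIF1A (-0.11, 0.0212) were lower.

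At 10:6, 25.6% of genes were called, 11.6% as higher and 14% as lower. KIF5B (0.32, limma adjusted p = 0.000370), KIF3B (0.27, 7.25e-05), KIF23 (0.23, 0.0367), KIF13A (0.21, 0.0386) and KIF19 (0.25, 0.0468) were higher, and KIF18B was lower (-0.18, 0.00893). KIF5B also kept its calls at 10:4 against 10:2 (0.37, limma adjusted p = 0.00256) and at 10:6 against 10:4 (-0.49, limma adjusted p = 0.000558), with 0.846% and 0.806% of genes called. No kinesin was called at 10:6 against 10:2, where 3.63% of genes were. KIF21A kept its call at 10:6 against 10:4 (-0.38, limma adjusted p = 0.00799). KIF15, KIF18A, KIF20B, KIF4A, KIF3A, KIF5C, KIF1B, KIF2A and KIF16B, called higher at 1 ratio or more before, were called at none after the removal. So were KIF22, KIFC1 and KIF1C, called lower before. The removal also takes out any change in RNA level that itself runs with GC content or length, and the part of each in these differences was not tested.

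**Figure D4:**
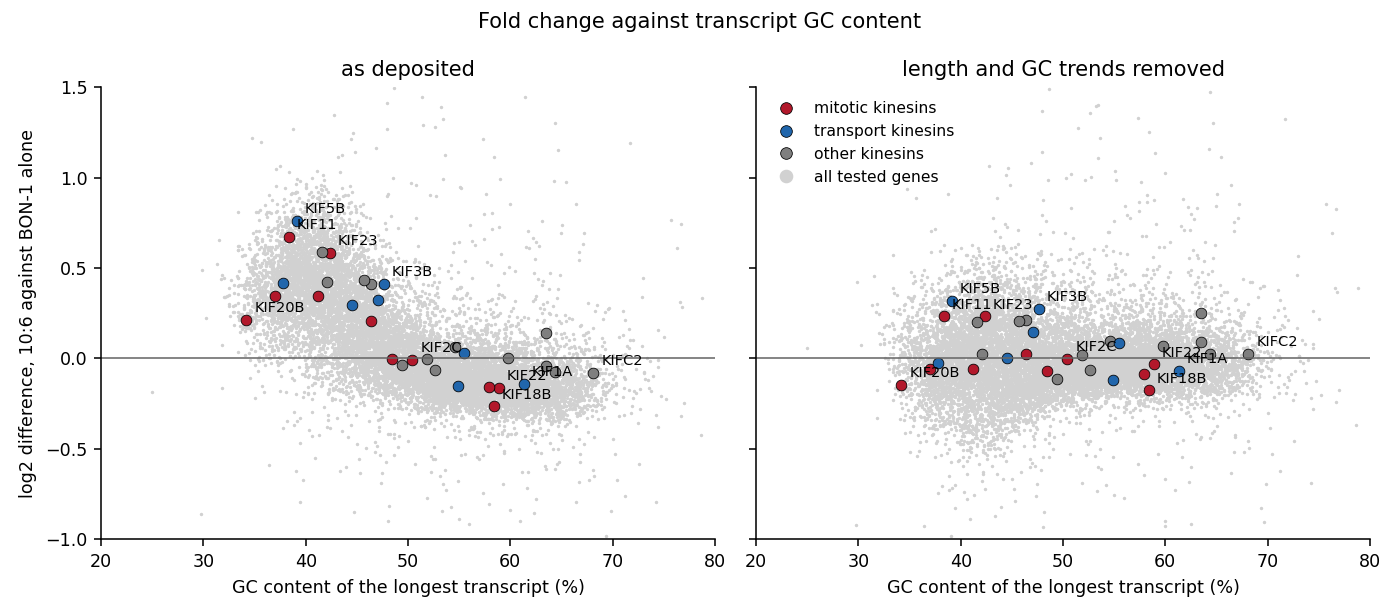
Log2 difference between 10:6 and BON-1 alone against GC content of the longest transcript, before (left) and after (right) removal of length and GC trends; grey points are the 12409 genes with a value and coloured points the 32 tested kinesins. Kinesins of low GC content such as KIF5B and KIF11 lie above 0 on the left, and after the removal KIF5B lies at 0.32 and KIF11 at 0.23; 35 genes on the left and 35 on the right lie outside the axes.

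Close relatives were set against each other, in pairs formed after the values were seen and given without a test. In 8 of 9 subfamilies with at least 2 tested members, the member of lowest GC content had a higher log2 difference than the member of highest GC content at each of the 3 ratios. In kinesin-8 at 10:4, KIF18A (GC 36.996%) was at 0.57, KIF18B (58.4%) at -0.25 and KIF19 (63.5%) at 0.12. In kinesin-4, KIF21A (42.1%) was at 0.79 and KIF21B (59.7%) at -0.01. In kinesin-13, KIF2A (41.6%) was at 0.62 and KIF2C (50.4%) at -0.02. The exception was kinesin-14, in which KIFC1 (57.9%) was at -0.16 and KIFC2 (68.1%) at -0.08. After removal of the trends the member of lowest GC content was higher in 5 of 9 subfamilies at 10:2, 6 at 10:4 and 3 at 10:6. The order held at each ratio in kinesin-1, in kinesin-3 (KIF16B above KIF1A) and in kinesin-13 (KIF2A above KIF2C). In kinesin-1, KIF5B was at 0.44, 0.81 and 0.32 after the removal, and KIF5C at 0.03, 0.01 and 0.005.

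Promoter letters, which the choice of members did not use, were counted in each class and are given without a test. The CCAAT box, bound by NF-Y, and the CHR element, bound by complexes that restrict genes to the late cell cycle, are known from promoters of mitotic genes. In the 250 bases before the annotated start, CCAAT was found on either strand in 11 of 14 mitotic kinesins (78.6%), 3 of 8 transport kinesins (37.5%), 3 of 12 other kinesins (25.0%) and 33.0% of 27305 promoters in RefSeq (GRCh38.p14). The CHR letters TTTGAA or TTCGAA, on either strand, were found in 6 mitotic (42.9%), 1 transport (12.5%) and 0 other kinesins, and in 14.6% of all promoters. Matches of CCAAT and of CHR letters do not overlap in the sequences printed. Of 42 members 34 matched a promoter entry. For KIF5C, KIFC1, KIF24 and KIF7 the start of that entry lies inside the span of the gene. The KIF5C window, 148947625 to 148947874 on chromosome 2, lies far inside the gene (148875227 to 149026759). These windows are in the counts above, and bases before the outermost start of these genes were not searched. Shown are KIF11 and KIF5B, higher in co-culture, and KIF22, lower in co-culture, with both motifs in capitals.
KIF11 (chr10:92592880-92593129, plus strand): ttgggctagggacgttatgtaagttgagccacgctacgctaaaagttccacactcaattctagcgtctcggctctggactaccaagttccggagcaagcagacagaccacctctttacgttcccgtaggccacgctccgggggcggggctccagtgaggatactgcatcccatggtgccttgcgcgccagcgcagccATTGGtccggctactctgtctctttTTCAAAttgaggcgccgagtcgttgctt
KIF5B (chr10:32056426-32056675, minus strand): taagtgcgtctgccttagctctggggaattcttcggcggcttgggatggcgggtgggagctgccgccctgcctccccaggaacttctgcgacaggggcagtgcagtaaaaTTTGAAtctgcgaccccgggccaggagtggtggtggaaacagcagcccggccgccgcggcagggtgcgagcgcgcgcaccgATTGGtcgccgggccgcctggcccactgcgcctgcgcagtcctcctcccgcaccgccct
KIF22 (chr16:29790501-29790750, plus strand): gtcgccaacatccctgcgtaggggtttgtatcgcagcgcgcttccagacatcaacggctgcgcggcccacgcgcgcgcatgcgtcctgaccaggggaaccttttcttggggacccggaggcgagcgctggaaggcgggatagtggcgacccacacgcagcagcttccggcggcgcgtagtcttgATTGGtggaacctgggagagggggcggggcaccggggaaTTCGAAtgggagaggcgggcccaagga
All 3 held both motifs, KIF5B being the 1 transport kinesin with CHR letters. Of the members with a promoter entry, only KIF18A, KIF23 and KIF4A also held both. Neither motif was found in KIF13A, KIF16B, KIF21A, KIF2A and KIF3A, called higher, or in KIF1A and KIF1C, called lower. The window inside KIF5C, called higher, also held neither, which leaves its outermost start unsearched. KIF18B and KIFC1, called lower, held CCAAT without CHR letters, for KIFC1 in the window inside the gene. A match is a match of letters and no sign of binding. The windows of KIF11, called higher, and KIF22, called lower, both hold CCAAT and CHR letters. After removal of length and GC trends KIF22 was called at no ratio. The part of these motifs in the levels was not tested.

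Partners of the motors were followed in lists of genes grouped by known role. Of 15 partners and cargo adaptors of kinesin-1 and kinesin-2, 5 were higher and 0 lower at 10:2, 6 and 3 at 10:4, and 6 and 3 at 10:6, where the shares of all genes called higher were 19.9%, 27.3% and 29.7%. Called lower were 7.46%, 18.1% and 18.3% of all genes. With trends removed the counts were 4 and 0, 6 and 0, and 5 and 0. Of all genes 6.06%, 10.7% and 11.6% were then higher and 5.61%, 12.5% and 14% lower. The 3 lower at 10:4, named like the lower members of the next lists after their values were seen, were KLC2, RHOT2 and MAPK8IP3, each at -0.16. KIF1BP, a binding partner that regulates several kinesins, averaged 15.6 ± 0.488 FPKM at 10:4, against 11.4 ± 0.228 FPKM in BON-1 alone, a log2 difference of 0.42 (adjusted p = 0.000588) in limma. TRAK2, which links kinesin-1 to mitochondria, averaged 5.02 ± 0.152 FPKM at 10:4, against 2.93 ± 0.287 FPKM in BON-1 alone, a difference of 0.62 (adjusted p = 1.78e-05) in limma. Both kept their calls at 10:4 after the trends were removed, at 0.50 for KIF1BP and 0.23 for TRAK2.

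The list of 15 genes for partners of mitotic kinesins includes CENPE, itself a kinesin motor whose symbol the family rule did not take. Of these 15 genes, 8 were higher and 2 lower at 10:2, 10 and 4 at 10:4, and 9 and 4 at 10:6, against the same shares of all genes. With trends removed the counts were 3 and 0, 5 and 0, and 2 and 4. The 4 lower at 10:4 were AURKB, CDCA8, PLK1 and INCENP, at -0.18 to -0.13. ECT2, which activates RhoA for cytokinesis with centralspindlin, averaged 18.5 ± 1.52 FPKM at 10:4, against 9.44 ± 0.255 FPKM in BON-1 alone, a difference of 0.90 (adjusted p = 9.69e-07) in limma. NUSAP1, a spindle microtubule binder, averaged 26.7 ± 2.11 FPKM at 10:4, against 14.96 ± 1.08 FPKM in BON-1 alone, a difference of 0.80 (adjusted p = 6.73e-06) in limma. CKAP5, a microtubule polymerase, averaged 20.7 ± 0.780 FPKM at 10:4, against 12.9 ± 0.627 FPKM in BON-1 alone, a difference of 0.64 (adjusted p = 4.70e-07) in limma. All 7 genes of a proliferation list were higher at 10:4 and at 10:6, and 6 at 10:2, where 27.3%, 29.7% and 19.9% of all genes were. TOP2A, the topoisomerase of dividing cells, averaged 19.3 ± 1.32 FPKM at 10:4, against 6.91 ± 0.454 FPKM in BON-1 alone, a difference of 1.36 (adjusted p = 6.71e-08) in limma. PCNA, the replication clamp, averaged 223 ± 7.79 FPKM at 10:4, against 189.8 ± 1.62 FPKM in BON-1 alone with a limma difference of 0.23 (adjusted p = 5.46e-05), and CCNA2, cyclin A2, averaged 42.97 ± 2.66 FPKM at 10:4, against 32.1 ± 0.545 FPKM in BON-1 alone with a limma difference of 0.41 (adjusted p = 8.54e-05). With trends removed, 3 of the 7 were higher and 0 lower at 10:2, 3 and 2 at 10:4, and 2 and 2 at 10:6. Over all genes the shares were then 6.06% and 5.61%, 10.7% and 12.5%, and 11.6% and 14%. The part of the number of dividing cells in the levels of mitotic kinesins was not tested.

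Dynein, the motor that walks toward the cell centre, and its activator dynactin gave 8 higher and 1 lower of 20 tested genes at 10:2, 8 and 5 at 10:4, and 8 and 5 at 10:6. Of all tested genes 19.9% were higher and 7.46% lower at 10:2, 27.3% and 18.1% at 10:4, and 29.7% and 18.3% at 10:6. With trends removed there were 2 and 2, 2 and 6, and 4 and 7 in the list. Over all genes the shares were then 6.06% and 5.61%, 10.7% and 12.5%, and 11.6% and 14%. The 5 lower at 10:4 were DCTN1, DYNLL2, DYNC1H1, ACTR1A and DCTN2, at -0.19 to -0.09. DYNC1I2, an intermediate chain of dynein, averaged 18.7 ± 0.893 FPKM at 10:4, against 10.1 ± 0.295 FPKM in BON-1 alone, a difference of 0.83 (adjusted p = 1.29e-07) in limma. DYNC1LI2, a light intermediate chain, averaged 19.2 ± 1.65 FPKM at 10:4, against 11.2 ± 0.518 FPKM in BON-1 alone with a limma difference of 0.73 (adjusted p = 2.90e-05), and DCTN6, a dynactin subunit, averaged 16.4 ± 0.388 FPKM at 10:4, against 10.5 ± 0.135 FPKM in BON-1 alone with a limma difference of 0.59 (adjusted p = 2.87e-05). Summed over 21 genes, the list was at 955 ± 9.75 FPKM in BON-1 alone, 951 ± 16.9 at 10:2, 951 ± 31.3 at 10:4 and 929 ± 10.2 at 10:6.

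Fibroblast markers moved with the ratio. Of 14 markers 10 were tested, and 7 were higher at 10:2, 10 at 10:4 and 10 at 10:6. Of all tested genes 19.9% were higher and 7.46% lower at 10:2, 27.3% and 18.1% at 10:4, and 29.7% and 18.3% at 10:6. Their summed level lay between 55.2 and 58.9 FPKM in BON-1 alone, 90.6 and 92.6 at 10:2, 168 and 173 at 10:4, and 247 and 250 at 10:6. COL1A1 averaged 54.4 FPKM at 10:6 against 9.22 in BON-1 alone, COL1A2 30.8 against 4.07, ACTA2 38.5 against 5.99, and SPARC 34.6 against 5.05. DCN was at most 0.404 FPKM and FAP at most 0.177 FPKM in any library, both reached at 10:6. KIF5B was highest at 10:4, whereas the marker sum was highest at 10:6. The part of CAF RNA in the kinesin levels was not tested. The 7 neuroendocrine markers were present in every group, with summed levels of 2856 to 2934 FPKM in BON-1 alone, 3111 to 3159 at 10:2, 3157 to 3230 at 10:4 and 3232 to 3312 at 10:6. They did not move together: 3 were higher and 3 lower at 10:2, and 3 higher and 4 lower at 10:4 and at 10:6, against the same shares of all genes. SCG2 averaged 1401 FPKM at 10:6 against 747 in BON-1 alone, whereas CHGA averaged 975 against 1347 and SYP 56.4 against 61.1. Of the leukocyte markers CD3E was listed at 0 in every library, PTPRC was at most 0.121 FPKM and CD14 at most 0.616 FPKM, and CD68 was at 5.34 to 7.81 FPKM. Of the endothelial markers CDH5 averaged 26.4 to 28.8 FPKM over the groups, and PECAM1 and VWF were at most 0.160 FPKM. Depth, recovered from the FPKM values, was 11703624 to 21882537 reads, with both the deepest library and the widest range in BON-1 alone.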

How the data were processed

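RNA of BON-1 cells was measured by RNA-seq in 12 libraries, 3 for each of 4 groups. The authors deposited FPKM values, 1 column a library; HISAT2, featureCounts and hg38 are named per the submitters' processing notes, without versions. The sources used here give neither the annotation nor the strand setting. FPKM divides by gene length and by reads assigned to genes, so a change in a few abundant genes shifts all others.

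Of 54261 genes, 13312 reached 1 FPKM in at least 3 libraries. These were tested with limma 3.58.1 (R 4.3.3) on log2(FPKM + 1), with 1 mean per group over 12 libraries, a variance trend and Benjamini-Hochberg adjustment over all genes tested; the threshold was 0.05. The script was tested on simulated data. Whole reads were recovered from the FPKM values (100% of 267349 nonzero values whole within 1e-05 of a read), which gave depths of 11703624 to 21882537 reads; the read counts set how precisely low members are known. GC content came from the longest GENCODE 29 transcript. Trends were removed per library with natural splines on GC content and log2 gene length. Promoters came from RefSeq (GRCh38.p14).

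Members, lists and tests were chosen with earlier results of these data known, so no pattern here is independent of that choice. The genes given by library are the 5 of each class with the smallest p in the moderated F test, the rest being given by group means; 1 gene of a partner list and 1 sequence are not reported here. Same-numbered replicates did not deviate together, so no pairing was used. Alternatives tried were other filters, pseudocounts, scalings, variance models, a fit of only the groups compared, limma-voom on recovered reads, trend removal, a replicate block, KIF2A among mitotic kinesins, and leaving out each library.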

Additional observations from a re-analysis of the deposited data

How the results depend on the processing

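The number of transport kinesins higher at 10:2, 4 as reported, was 2 with no filter on low values, with quantile normalization, with length and GC trends removed, and with the replicate block, alone or with trends removed. Mitotic kinesins higher at 10:2, 5 as reported, were 3 with quantile normalization and 0 with trends removed, with or without the block. At 10:4 the trend removal, with or without the block, left 2 mitotic (6 as reported) and 2 transport kinesins (4 as reported) higher. At 10:6 quantile normalization left 3 mitotic and 3 transport kinesins, and trend removal, with or without the block, 1 mitotic and 2 transport, against 5 of each as reported.

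Kinesins called at 10:4 against 10:2, 3 as reported, were 5 with limma-voom and 1 in a fit of only the groups compared, with trends removed, with the block and with both. At 10:6 against 10:4, 2 were reported, 1 was called with no filter or with the block, and 0 in a fit of only the groups compared. At 10:6 against 10:2, 1 was reported, 2 were called with limma-voom, and 0 with no filter, in a fit of only the groups compared, with trends removed, with the block and with both. The cause of these moves was not tested.

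Among called differences, trend removal, with or without the block, changed the sign for KIF22 at 10:4 (0.0049), KIF3A at 10:4 (-0.011) and 10:6 (-0.026), and KIF15 (-0.060) and KIF18A (-0.061) at 10:6. Counting uncalled kinesins too, the sign changed in 6 of 32 at 10:2, 9 at 10:4 and 8 at 10:6. With quantile normalization KIF21B, not called as reported, was called lower at 10:6 (-0.17).

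For each comparison, each of the 6 libraries compared was left out in turn. This left 2 to 4 mitotic and 2 to 3 transport kinesins higher at 10:2, 6 and 3 to 5 at 10:4, and 4 to 6 and 4 to 5 at 10:6. The 10:2 counts moved by over 1.5 times without replicate 2 of BON-1 alone (3 mitotic, 2 transport), replicate 3 of BON-1 alone (2 mitotic), or replicate 1 or 3 of 10:2 (3 mitotic, 2 transport). Libraries outside a comparison also moved calls, through the spread that all 12 libraries share. Without replicate 2 of 10:4, or replicate 2 or 3 of 10:6, 2 transport kinesins were higher at 10:2. In those fits 0 mitotic kinesins were lower there, against 2 as reported. Kinesins called were 1 to 3 at 10:4 against 10:2, 1 to 2 at 10:6 against 10:4 and 0 to 1 at 10:6 against 10:2.

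No shared deviation by replicate number was seen. Same-numbered libraries correlated by -0.043 to 0.046 in their deviations over 18 pairs, and no library correlated best with its own number in every group. These values cannot tell whether same-numbered libraries were made together. Low members such as KIF3A, with 37 to 122 reads a library, are limited by depth.

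Over all 13312 genes, limma-voom on the recovered reads called 3067 higher and 1248 lower at 10:2, 3877 and 2646 at 10:4, and 4260 and 2675 at 10:6. At 10:4 against 10:2 it called 841 higher and 202 lower, where 329 and 55 were called as reported.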
